A study of Homo sapiens with 12 samples.

Results

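Small nucleolar RNA (snoRNA) host genes were followed through the polysome-associated RNA of 3 established triple-negative breast cancer (TNBC) lines, MDA-MB-231, SUM159 and BT549. The 10 genes are GAS5, ZFAS1, SNHG1, SNHG5, SNHG6, SNHG7, SNHG8, SNHG12, SNHG15 and SNHG16. They were chosen by symbol from 24559 gene symbols, and all 10 were among the 16538 symbols that passed the filter on low counts. The study asked how TRMT112, a cofactor that several rRNA and tRNA methyltransferases need, shapes the set of RNAs held by ribosomes. MDA-MB-231 and SUM159 cells carried a TRMT112 shRNA plasmid (KD) or a non-silencing control plasmid and were selected with puromycin. BT549 cells carried a TRMT112 open reading frame plasmid (OE) or its empty vector and were selected with G418. The labels call all 3 controls EV. Cells of every group were briefly exposed to cycloheximide, which holds ribosomes on the RNA, before lysis, and no further treatment is named. Each of the 6 groups had 2 libraries. No source used here says whether the 2 libraries of a group came from separate cultures, so the p-values measure only the spread between these libraries, which may be technical. KD was made in 2 lines and OE in another, and each line was grown in its own medium, so line, medium and construct cannot be told apart in a comparison between lines.

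A snoRNA host gene carries its snoRNAs in introns. Once the introns are spliced out and trimmed, box C/D snoRNAs guide methylation of the ribose in rRNA and box H/ACA snoRNAs guide the conversion of uridine to pseudouridine, whereas the joined exons leave the nucleus as a long noncoding RNA. These exon RNAs are known for short reading frames that draw ribosomes and for their rapid turnover by nonsense-mediated decay, a pathway that acts on RNA while it is translated. Several of them begin with a 5′ terminal oligopyrimidine (TOP) tract, the start that ribosomal protein mRNAs share and through which mTOR signaling sets their translation. The values given here are for the host transcripts, some of them annotated as retaining an intron, and not for the snoRNAs. None of the snoRNAs hosted by the 10 genes had a row in the deposited table. Whether the polysome fractions held them can therefore not be read.

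By RefSeq positions on GRCh38.p14, the 10 host genes carry different cargo. GAS5, the growth arrest-specific transcript (chromosome 1, 173858559 to 173868882, minus strand), holds 11 snoRNAs. Of these, 10 are box C/D RNAs (SNORD44, SNORD47 and SNORD74 to SNORD81) and 1 is the box H/ACA RNA SNORA103. SNHG1 (chromosome 11, 62851978 to 62855953, minus strand) holds 9, of which 8 are the box C/D RNAs SNORD22, SNORD25 to SNORD31 and 1 has no snoRNA name. The other hosts of box C/D RNAs are ZFAS1 with 3 of the SNORD12 family (chromosome 20, 49278178 to 49299600, plus strand), SNHG5 with SNORD50A and SNORD50B (chromosome 6, 85650491 to 85678932, minus strand), SNHG6 with SNORD87 and SNHG16 with 3 of the SNORD1 family (chromosome 17, 76557727 to 76670985, plus strand). Box H/ACA RNAs are held by SNHG7 with SNORA17A and SNORA17B (chromosome 9, 136721366 to 136728184, minus strand), SNHG8 with SNORA24 (chromosome 4, 118278703 to 118285316, plus strand) and SNHG15 with SNORA9 (chromosome 7, 44983019 to 44986961, minus strand). SNHG12 (chromosome 1, 28578538 to 28583132, minus strand) holds 3 box H/ACA RNAs and the box C/D RNA SNORD99. Gene positions are those of GENCODE 44 on GRCh38, which annotates all 10 as long noncoding RNAs.

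The first bases of 6 host RNAs are printed because the TOP start is the feature that ties these genes to ribosomal protein mRNAs. Each window of GRCh38 holds 10 bases before and 20 bases from the annotated start of the transcript with the most counts, read on the strand of the gene. Capitals mark a run of C followed by at least 4 pyrimidines (C or T) that begins within 5 bases of that start.
GAS5: ccaggcaccatactgtcttttcgaggtagg
ZFAS1: aagccattcgttCTTTCgcgtctgcggtgc
SNHG1: gggcctctgcggcatggtatttaatcgtct
SNHG5: cacttcggtCTTTTacgtcggccttcgcga
SNHG8: cggcgCTTCCCCCggaatagcgtcatcagt
SNHG12: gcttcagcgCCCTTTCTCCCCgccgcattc
The windows lie at chr1:173867976-173868005 for GAS5-245, chr20:49278630-49278659 for ZFAS1-204, chr11:62855903-62855932 for SNHG1-266, chr6:85678713-85678742 for SNHG5-201, chr4:118278696-118278725 for SNHG8-211 and chr1:28581854-28581883 for SNHG12-212. Of the 10 hosts, whose windows were all read, ZFAS1, SNHG5, SNHG8 and SNHG12 held such a run, a count of 4. In GAS5 a run of the same kind began at base 7, just outside the limit, and in SNHG1 and SNHG7 a run lay 7 bases before the start. Runs were found in 54 of 79 cytosolic ribosomal protein genes (68.4%), in 12 of 19 other genes known for a TOP start (63.2%) and in 4 of 17 further SNHG genes (23.5%). Over all 16538 symbols the share was 21%, and 19.5% on the opposite strand. The annotated start of the transcript with the most counts need not be the start that the cells use.

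The 12 libraries held between 22954226 and 27434677 expected counts each. TRMT112, read as CPM (counts scaled with TMM factors to a common library size), checked the labels: it was at 173 and 165 in MDA-MB-231 EV against 73.8 and 70.4 in KD, at 265 and 275 in SUM159 EV against 163 and 155 in KD, and at 129 and 129 in BT549 EV against 179 and 181 in OE. Markers of the lines were read as rounded counts. VIM, the vimentin gene of mesenchymal cells, lay between 14860 and 46426 in every library. The keratin gene KRT18 lay between 4617 and 10523 counts in MDA-MB-231 and SUM159 and between 4 and 6 in BT549. KRT8, another keratin gene, lay between 8 and 16 in BT549 and at 4865 or more in the other lines. The epithelial genes CDH1 and EPCAM did not pass 58 and 79 counts. The estrogen receptor gene ESR1 was at 0 throughout, and the progesterone receptor gene PGR did not pass 9 counts. ERBB2, the HER2 gene, lay between 1478 and 3089 counts in every library. The blood cell marker PTPRC did not pass 16 counts. The libraries are scaled to each other, so a change shared by all RNAs would not show. There was no total RNA library, hence the amount of an RNA in the cell and its loading with ribosomes cannot be told apart, nor can fewer cells holding an RNA and less of it per cell. Replicates were close: over the 12590 genes that averaged 50 counts or more, the median absolute log2 difference between the 2 libraries of a group was 0.063 to 0.079. For the 10 host genes that median was 0.043 to 0.361, and 2 pairs stood out, SNHG7 in BT549 OE with 98 and 13 counts and SNHG12 in MDA-MB-231 KD with 7 and 25 counts.

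Summed over the 10 genes, host gene RNA in EV polysomes was highest in SUM159, lower in MDA-MB-231 and lowest in BT549. The summed level of the 10 genes was 333.8 and 344.1 CPM in SUM159 EV, 222.2 and 215.9 CPM in MDA-MB-231 EV, and 89.8 and 89.0 CPM in BT549 EV. The 3 groups did not overlap. Levels of different genes were compared per transcript length, as TPM (the share of a library after division by length) computed here from the counts and the annotated lengths.

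**Figure D1:**
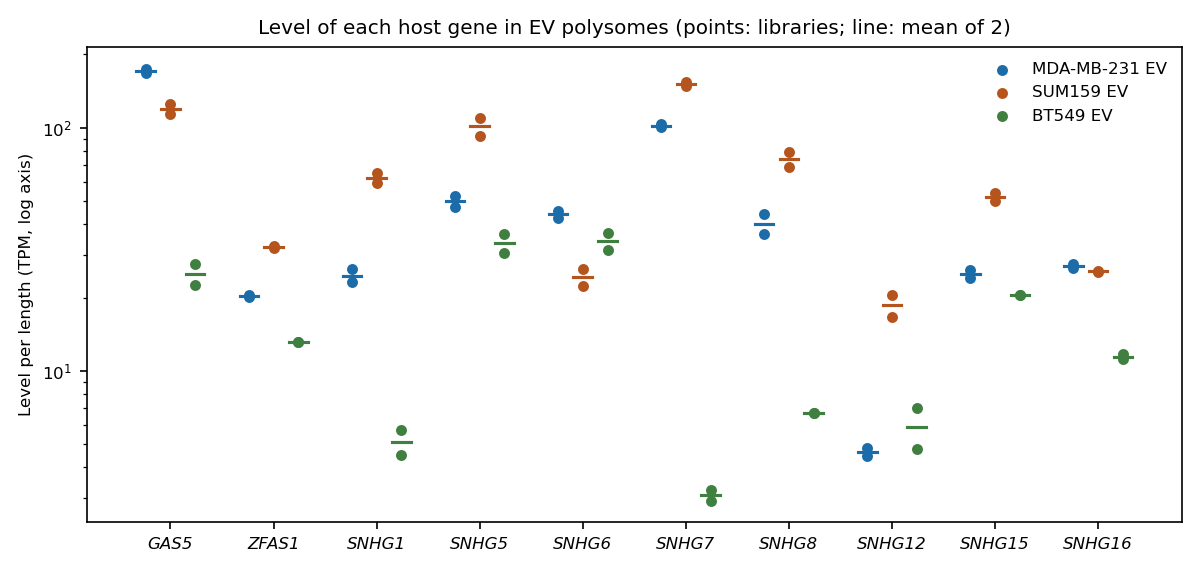
Level per length (TPM, log axis) of the 10 host genes on the x axis in the EV libraries of MDA-MB-231, SUM159 and BT549; points are libraries and short lines the mean of 2. GAS5 and SNHG7 lie above 100 TPM in MDA-MB-231 and SUM159, and SNHG7 falls to about 3 TPM in BT549.

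In MDA-MB-231 EV, GAS5 led with 175 and 168 TPM, above 94.3% of the symbols with a level over 0, followed by SNHG7 with 104 and 100.2 TPM. SNHG12 was lowest, at 4.47 and 4.83 TPM. Between them came SNHG5, SNHG6, SNHG8, SNHG16, SNHG15, SNHG1 and ZFAS1, with means from 49.9 down to 20.3 TPM, and the libraries of 2 neighbouring pairs in this order overlapped (SNHG6 with SNHG8, SNHG15 with SNHG1). In SUM159 EV the order began with SNHG7 (154 and 149 TPM), GAS5 (113 and 125 TPM) and SNHG5 (110 and 92.5 TPM) and ended with SNHG12 (16.7 and 20.6 TPM). Only SNHG16 and SNHG6 overlapped among the 9 neighbouring pairs there. In BT549 EV, SNHG6 (31.3 and 36.8 TPM) and SNHG5 (30.6 and 36.7 TPM) overlapped at the top, GAS5 followed with 27.6 and 22.6 TPM, and SNHG7 came last with 2.92 and 3.23 TPM. The host that was first in SUM159 was thus last in BT549. By their means, the hosts in BT549 EV lay above 52.1% (SNHG7) to 80.8% (SNHG6) of the symbols with a level over 0.

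The EV groups were set against each other in the same fit as all other comparisons, with edgeR's quasi-likelihood test and Benjamini-Hochberg adjustment over the 16538 symbols. These comparisons share their EV libraries with each other and with the KD or OE comparisons. Against SUM159, 7 of the 10 hosts were lower in MDA-MB-231 and 2 were higher, where 39.2% and 36.4% of all symbols tested were called. GAS5 and SNHG6 were the higher ones, with log2 fold changes of 0.34 (SE 0.07, adjusted p = 0.00025) and 0.66 (SE 0.13, adjusted p = 0.000117). SNHG12 was furthest below, with a log2 fold change of -2.16 (SE 0.25, adjusted p = 3.5e-08), and SNHG16 was not called (-0.06, SE 0.07, adjusted p = 0.398).

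Most hosts, though not all, were lower in BT549 EV than in the other lines. Against SUM159, 9 of the 10 hosts were lower and SNHG6 was higher, beside 40.7% lower and 37.7% higher among all symbols. Against MDA-MB-231, 6 were lower and SNHG12 was higher, beside 40.4% lower and 39.1% higher among all symbols. SNHG7 differed most: its log2 fold change in BT549 was -5.26 against SUM159 (SE 0.21, adjusted p = 7.68e-17) and -4.41 against MDA-MB-231 (SE 0.22, adjusted p = 1e-14). SNHG1, SNHG8 and GAS5 followed against SUM159, at -3.40, -3.20 and -2.03 on the log2 scale, each with an SE of at most 0.17. ZFAS1, SNHG6 and SNHG15 were not called between BT549 and MDA-MB-231. The higher SNHG12 in BT549 was not called in several settings: its log2 fold change against MDA-MB-231 went from 0.92 to 0.67 (adjusted p = 0.0777) without BT549 EV replicate 1, to 0.09 (adjusted p = 0.84) without retained-intron transcripts and to -0.52 (adjusted p = 0.645) in the main transcript alone.

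**Figure D2:**
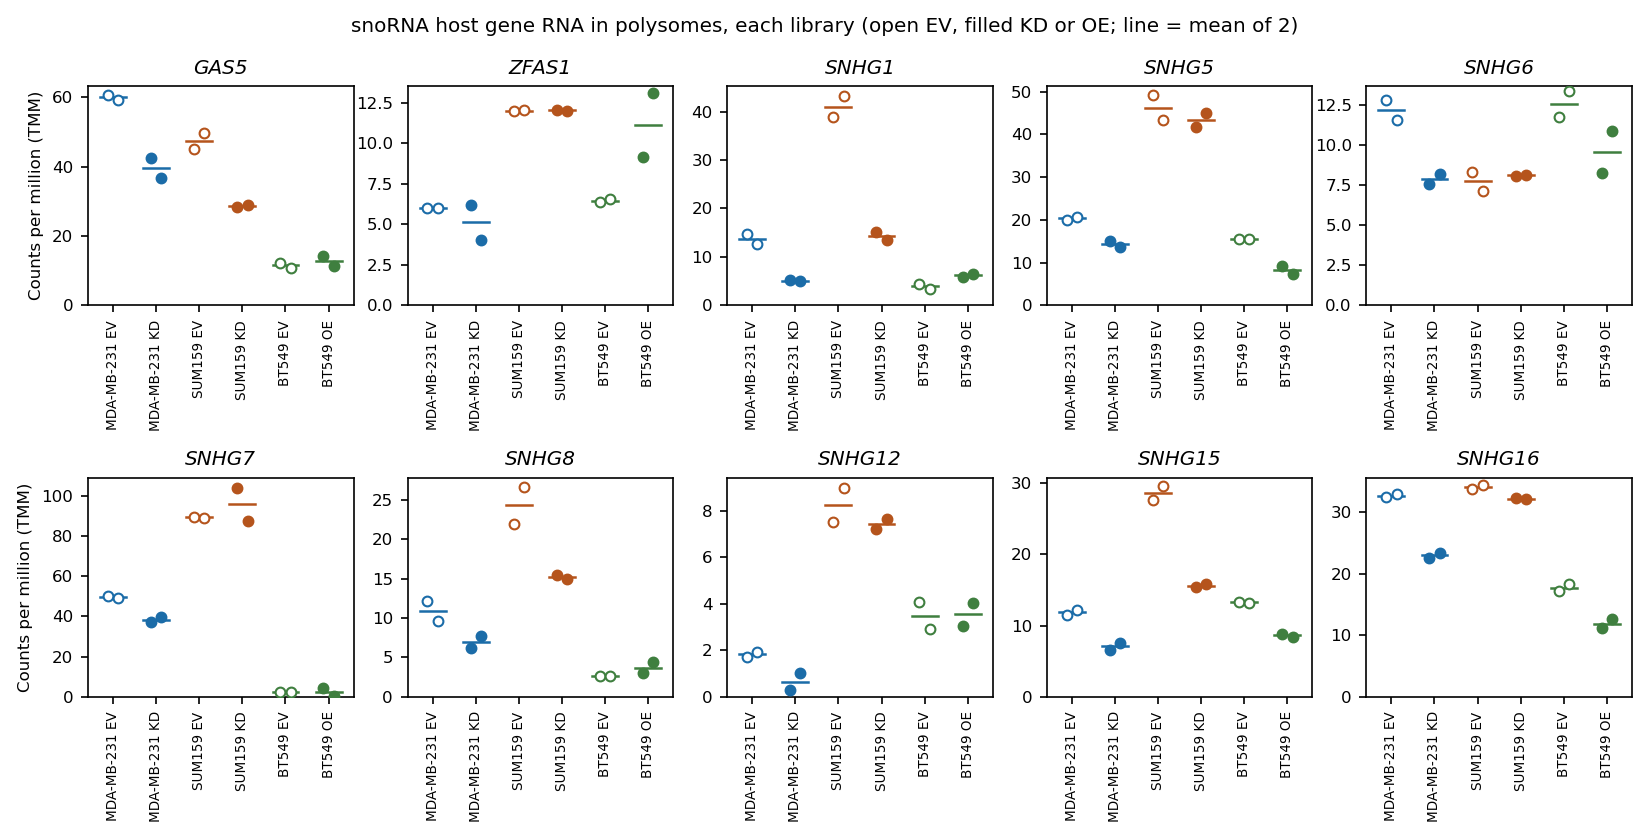
CPM after TMM scaling (y axis, from 0) of each host gene in the 12 libraries, by group on the x axis; open points are EV, filled points KD or OE, and lines the mean of 2. In MDA-MB-231 the KD points lie below the EV points for every gene but ZFAS1, while in SUM159 GAS5, SNHG1, SNHG8 and SNHG15 fall clearly and SNHG16 by a small step.

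TRMT112 KD in MDA-MB-231 was accompanied by less host gene RNA in polysomes. The summed level of the 10 genes was 222.2 and 215.9 CPM in EV and 148.9 and 146.6 CPM in KD. Of the 10 hosts, 9 were called lower, where 16.5% of all symbols were. None was called higher by edgeR, also at an unadjusted p under 0.05 and by DESeq2 (0 in each case), where 21.2% of all symbols were called higher. The 2 groups did not overlap for the same 9 hosts, beside 32.3% of all symbols in that direction and 33.7% in the other. Each host was also read from its main transcript, the one with the most counts over all 12 libraries, in place of the sum. So read, 4 hosts (GAS5, SNHG6, SNHG15 and SNHG16) were called lower, and SNHG1, SNHG5, SNHG7, SNHG8 and SNHG12 were not. The median log2 fold change of the 10 was -0.62, and that of all symbols was 0.

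Among the hosts that carry only or mostly box C/D snoRNAs, SNHG1 fell most. Its level was 14.7 and 12.7 CPM in EV and 5.29 and 4.92 CPM in KD, a log2 fold change of -1.42 (SE 0.13, adjusted p = 8.79e-09), and -0.89 (adjusted p = 0.073) in its main transcript alone. GAS5 went from 60.7 and 59.2 CPM to 42.4 and 36.6 CPM, a log2 fold change of -0.60 (SE 0.08, adjusted p = 9.21e-07). GAS5 began from the highest CPM of the 10 in this line, so it lost the most in CPM though not in fold. SNHG16 was at 32.5 and 32.9 CPM in EV and at 22.5 and 23.4 CPM in KD (log2 fold change -0.51, SE 0.07, adjusted p = 3.38e-06). SNHG5 was at 20.0 and 20.8 CPM in EV and at 15.0 and 13.6 CPM in KD (log2 fold change -0.51, SE 0.10, adjusted p = 0.000143). Its main transcript alone stood at -0.12 (adjusted p = 0.984). SNHG6 (chromosome 8, 66920561 to 66926398, minus strand) was at 12.8 and 11.5 CPM in EV and at 7.52 and 8.18 CPM in KD (log2 fold change -0.63, SE 0.13, adjusted p = 0.000516). These 5 hosts had every KD library below every EV library. ZFAS1 was the exception, with 6.02 and 5.997 CPM in EV and 6.19 and 4.03 CPM in KD (log2 fold change -0.23, SE 0.18, adjusted p = 0.35), and its 2 KD libraries lay on either side of EV.

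All 3 hosts of box H/ACA snoRNAs alone were also lower in MDA-MB-231 KD. SNHG15 went from 11.5 and 12.1 CPM to 6.62 and 7.58 CPM (log2 fold change -0.74, SE 0.11, adjusted p = 6.87e-06). SNHG8 went from 12.2 and 9.66 CPM to 6.15 and 7.74 CPM (log2 fold change -0.65, SE 0.15, adjusted p = 0.00139), with -0.94 (adjusted p = 0.0717) in its main transcript. SNHG7 had the smallest called difference, from 50.0 and 49.1 CPM to 37.1 and 39.7 CPM (log2 fold change -0.37, SE 0.13, adjusted p = 0.0276). Its call was lost whichever of the 4 MDA-MB-231 libraries was left out (adjusted p 0.066 to 0.166) with DESeq2 (adjusted p = 0.753) and from the main transcript alone (adjusted p = 0.409), and kept when the line was fitted alone (adjusted p = 7.23e-06). SNHG12, which like GAS5 carries both kinds of snoRNA, had few reads, with 44 and 51 counts in EV and 7 and 25 counts in KD. Its log2 fold change of -1.52 (SE 0.37, adjusted p = 0.00203) became -0.86 (adjusted p = 0.0746) without KD replicate 1, the library with 7 counts, and -1.21 (adjusted p = 0.469) in the main transcript. Leaving out that library also brought ZFAS1 to -0.57 (adjusted p = 0.0426).

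**Figure D3:**
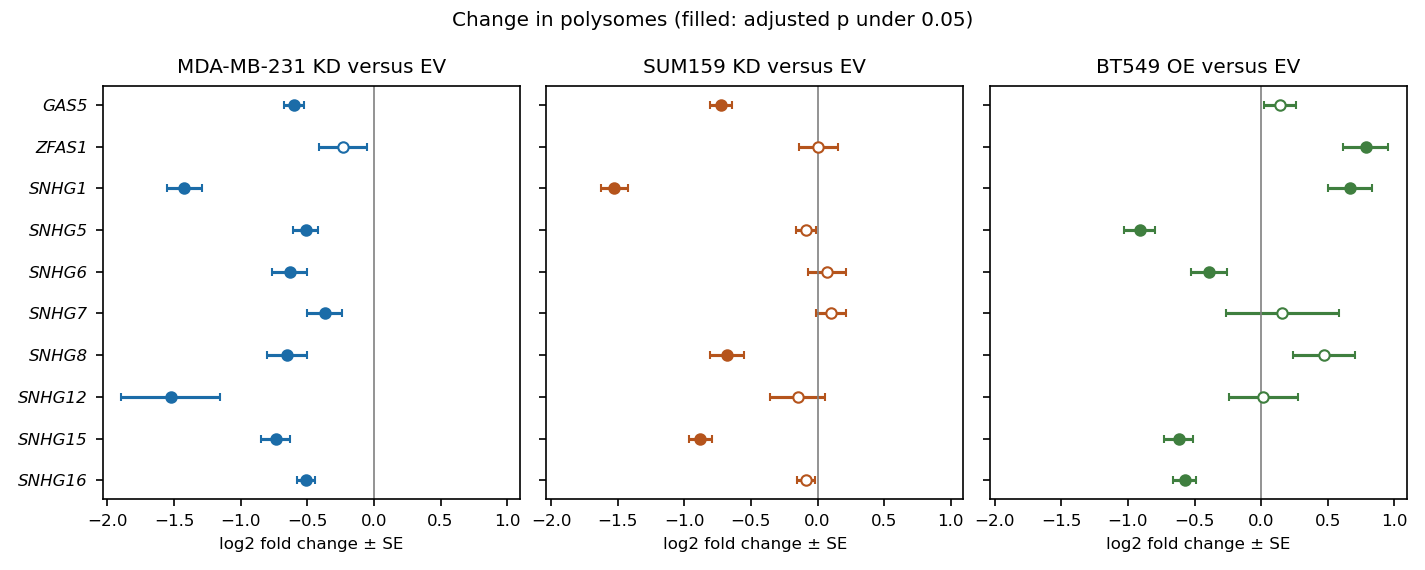
log2 fold change (x axis, ± SE) of the 10 host genes in KD or OE against EV of the same line, 2 libraries per group; filled points have an adjusted p under 0.05. All 10 values lie below 0 in MDA-MB-231 KD, 4 clear drops stand out in SUM159 KD, and BT549 OE holds called values on both sides of 0.

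In SUM159, fewer of the hosts were lower in KD. Their summed level was 333.8 and 344.1 CPM in EV and 279.7 and 265.7 CPM in KD. GAS5, SNHG1, SNHG8 and SNHG15 were called lower, 4 of 10, beside 31.4% of all symbols, so the count lies near the background. The groups did not overlap for 5 hosts, all lower in KD, beside 39.2% of all symbols in that direction and 37.5% in the other. No host was called higher by edgeR, also at an unadjusted p under 0.05 and by DESeq2 (0 in each case), beside 28.6% of all symbols. The median log2 fold change of the 10 was -0.12, and that of all symbols 0.

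SNHG1 again had the largest drop, from 38.8 and 43.3 CPM in EV to 15.2 and 13.4 CPM in KD, a log2 fold change of -1.53 (SE 0.10, adjusted p = 3.9e-12). SNHG15 went from 27.7 and 29.6 CPM to 15.4 and 15.8 CPM (log2 fold change -0.88, SE 0.09, adjusted p = 5.22e-09). GAS5 went from 44.9 and 49.7 CPM to 28.3 and 28.9 CPM (log2 fold change -0.72, SE 0.08, adjusted p = 4.03e-08). Their fitted KD levels were 0.347, 0.544 and 0.605 of the EV levels, respectively, with no overlap. SNHG8 went from 21.95 and 26.7 CPM to 15.5 and 14.9 CPM (log2 fold change -0.68, SE 0.13, adjusted p = 6.22e-05). The calls of all 4 genes were kept in each of the 14 alternative settings and left-out libraries.

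The other 6 hosts of SUM159 did not pass the test. SNHG7, the most abundant, was at 89.6 and 89.0 CPM in EV and at 104.0 and 87.6 CPM in KD (log2 fold change 0.10, SE 0.11, adjusted p = 0.473). SNHG5 was at 49.3 and 43.3 CPM in EV and at 41.8 and 45.1 CPM in KD (-0.09, SE 0.08, adjusted p = 0.327), and ZFAS1 was between 11.9 and 12.1 CPM in all 4 libraries. SNHG16 did separate the groups, with 33.8 and 34.4 CPM in EV and 32.2 and 32.1 CPM in KD, but by a small step (-0.09, SE 0.07, adjusted p = 0.287). SNHG6 and SNHG12 overlapped, with log2 fold changes of 0.07 (SE 0.14) and -0.15 (SE 0.21).

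Whether KD acted differently in the 2 lines was tested as the difference of the log2 fold changes, MDA-MB-231 minus SUM159. It was called for 5 of the 10 hosts, each with the more negative value in MDA-MB-231, beside 23.2% of all symbols in that direction. The count was 3 without MDA-MB-231 KD replicate 1, and 1 when read from the main transcripts alone, where 2 hosts, GAS5 and SNHG1, were called the other way. The difference was -0.42 for SNHG5 (SE 0.12, adjusted p = 0.00541), -0.70 for SNHG6 (SE 0.19, adjusted p = 0.00386) and -0.42 for SNHG16 (SE 0.10, adjusted p = 0.000792). For SNHG7 it was -0.47 (SE 0.17, adjusted p = 0.0259) and for SNHG12 -1.38 (SE 0.43, adjusted p = 0.00936). With single libraries left out, the drop of SNHG7 in MDA-MB-231 itself kept its size, at -0.42 to -0.32, but lost its call. That of SNHG12 ranged from -2.72 to -0.86. No difference was called in the other direction by edgeR, at an unadjusted p under 0.05 or by DESeq2 (0 in each case), beside 27.7% of all symbols. For the 4 hosts called lower in both lines the differences were 0.12 for GAS5 (SE 0.11), 0.10 for SNHG1 (SE 0.17), 0.02 for SNHG8 (SE 0.20) and 0.14 for SNHG15 (SE 0.14), none of them called. TRMT112 itself fell further in MDA-MB-231, by a difference of -0.47 (SE 0.06, adjusted p = 1.83e-07), and its part in the values above was not tested.

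The hosts moved both ways in BT549 with TRMT112 OE. Their summed level was 89.8 and 89.0 CPM in EV and 77.2 and 79.2 CPM in OE. SNHG1 and ZFAS1 were called higher, 2 of 10, beside 35.6% of all symbols. SNHG5, SNHG6, SNHG15 and SNHG16 were called lower, 4 of 10, beside 35.0% of all symbols. Both counts lie near or below the background. The groups did not overlap for 3 hosts above EV and 4 below it, beside 42.8% and 40.1% of all symbols. The median log2 fold change of the 10 was 0.08 against 0.02 for all symbols. VIM stood at 43227 and 42873 counts in EV and at 15758 and 14860 counts in OE, and its part in the values of the hosts was not tested.

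SNHG1 rose from 4.44 and 3.34 CPM in EV to 5.84 and 6.53 CPM in OE (log2 fold change 0.67, SE 0.17, adjusted p = 0.00106). ZFAS1 rose from 6.37 and 6.53 CPM to 9.17 and 13.1 CPM (log2 fold change 0.78, SE 0.17, adjusted p = 0.000224). Without OE replicate 2, ZFAS1 stood at 0.50. Its main transcript over all libraries, ZFAS1-204, stood alone at 1.23 (adjusted p = 0.0518), which was not called. In BT549 EV that transcript was a minor one, with 3.90% and 15.9% of the ZFAS1 counts, against 67.2% and 66.2% for ZFAS1-205. Every OE library lay above every EV library for both SNHG1 and ZFAS1.

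SNHG5 had the largest drop in OE, from 15.5 and 15.6 CPM to 9.22 and 7.29 CPM (log2 fold change -0.91, SE 0.12, adjusted p = 2.24e-07). SNHG15 went from 13.4 and 13.1 CPM to 8.80 and 8.43 CPM (log2 fold change -0.62, SE 0.11, adjusted p = 1.9e-05), and SNHG16 from 17.1 and 18.3 CPM to 11.1 and 12.6 CPM (log2 fold change -0.57, SE 0.09, adjusted p = 4.12e-06). These 3 hosts showed no overlap between EV and OE. SNHG6 went from 11.7 and 13.3 CPM to 8.25 and 10.8 CPM (log2 fold change -0.39, SE 0.13, adjusted p = 0.0118), a call lost without EV replicate 2 (adjusted p = 0.106) or OE replicate 1 (adjusted p = 0.216), or from the main transcript alone (adjusted p = 0.0912). SNHG7 cannot be read in OE: its 2 libraries held 98 and 13 counts against 49 and 52 in EV, and its log2 fold change of 0.16 (SE 0.42) became 0.96 or -1.91 depending on which OE library was left out. SNHG8 (0.47, SE 0.23, adjusted p = 0.0725), GAS5 (0.14, SE 0.12, adjusted p = 0.296) and SNHG12 (0.02, SE 0.26, adjusted p = 0.969) were not called. SNHG8 was called higher in 3 settings: 0.47 with no filter on low counts (adjusted p = 0.0393), 0.50 with a minimum mean of 50 counts (adjusted p = 0.0461) and 0.73 without OE replicate 1 (adjusted p = 0.016). Its main transcript alone was at -0.09 (adjusted p = 0.893). SNHG12 was called higher at 0.96 without retained-intron transcripts (adjusted p = 0.0135) and at 2.32 in its main transcript (adjusted p = 0.0363). That transcript, SNHG12-212, had only 0.02 and 10.2 counts in BT549 EV and 24.4 and 26.4 in OE. In BT549 EV the retained-intron transcript SNHG12-202 held more, 40.2% and 53.2% of the SNHG12 counts.

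SNHG1 and SNHG15 were called in all 3 comparisons, in different ways. SNHG1 had log2 fold changes of -1.42, -1.53 and 0.67 in MDA-MB-231 KD, SUM159 KD and BT549 OE, a pattern of lower, lower and higher calls that 2.99% of all symbols showed. SNHG15 had -0.74, -0.88 and -0.62, lower in each, as did 2.94% of all symbols. Lower calls in both KD lines were made for 4 of the 10 hosts and for 7.47% of all symbols. The fall of SNHG1 with KD and its rise with OE came from different lines, which start from different levels: the EV mean was 41.0 CPM in SUM159 and 3.89 CPM in BT549.

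Most host genes have many annotated transcripts, and the deposited values divide each gene's reads among them. The table held 91 transcripts of GAS5, 86 of SNHG5 and 79 of SNHG1, and between 8 and 19 of each other host. A single transcript held 83.4% of the counts of SNHG16 (SNHG16-213), 81.0% of SNHG15 (SNHG15-203), 77.1% of SNHG7 (SNHG7-205), 71.5% of SNHG6 (SNHG6-203) and 65.7% of GAS5 (GAS5-245). In SNHG5, SNHG12, ZFAS1 and SNHG8 no transcript reached 40%. The division was unsteady between replicates for some genes: SNHG5-201 took 1.39% of the SNHG5 counts in BT549 EV replicate 1 and 30.5% in replicate 2. No test was made on these shares.

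**Figure D4:**
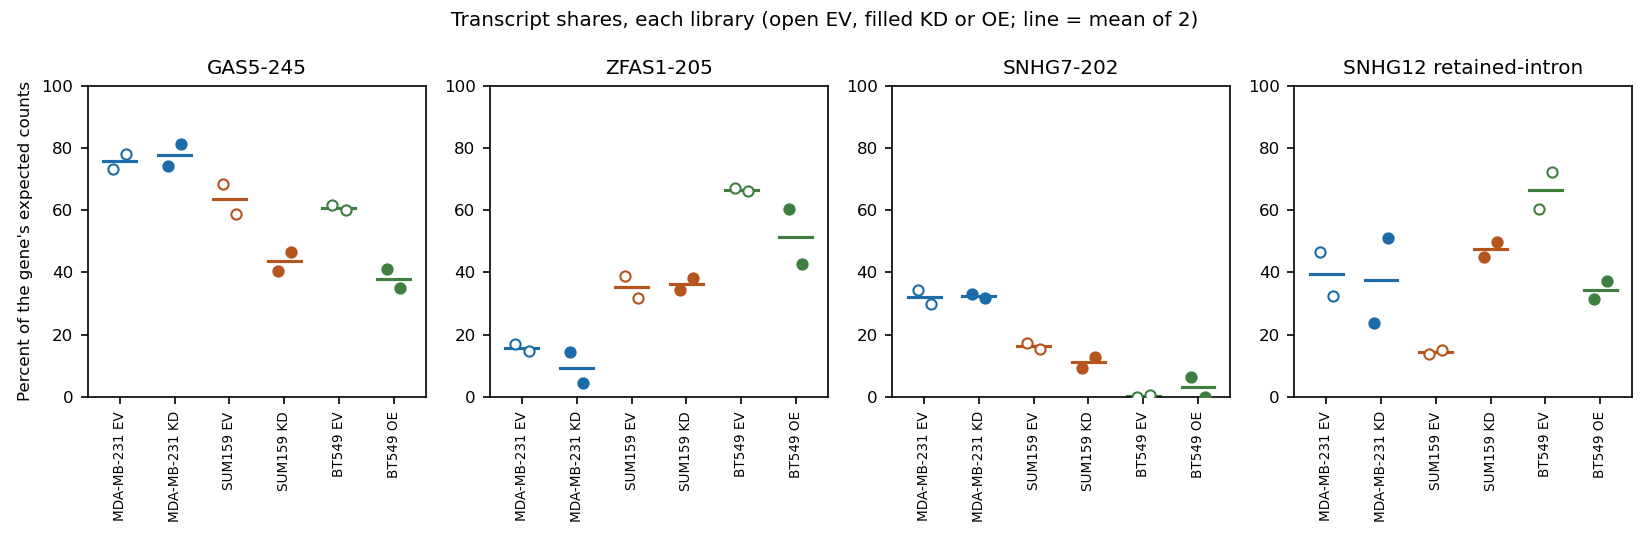
Percent of a gene's expected counts (y axis, 0 to 100) assigned to GAS5-245, ZFAS1-205, SNHG7-202 and the retained-intron transcripts of SNHG12 in each library, by group on the x axis; open points are EV, filled points KD or OE, lines the mean of 2. ZFAS1-205 rises from below 20% in MDA-MB-231 to above 60% in BT549 EV, and the SNHG12 share rises from about 14% to above 45% with KD in SUM159.

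Some shares differed between groups by more than between replicates. GAS5-245 held 68.5% and 58.9% of the GAS5 counts in SUM159 EV and 40.6% and 46.6% in KD, and in BT549 EV it held 61.8% and 60.0%, against 41.0% and 35.1% after OE. The MDA-MB-231 GAS5-245 shares of EV (73.2% and 78.2%) and KD (74.2% and 81.3%) overlapped. GAS5-255 took up part of the difference in BT549, with 17.96% and 2.27% in EV and 36.7% and 34.3% in OE. Counted as this transcript alone, GAS5-245 had a log2 fold change of -0.53 in BT549 OE (adjusted p = 0.0235), where the whole gene had 0.14. ZFAS1 was made up differently in each line: ZFAS1-205 held 16.9% and 14.7% of its counts in MDA-MB-231 EV, 39.0% and 31.9% in SUM159 EV and 67.2% and 66.2% in BT549 EV. SNHG7-202, the other main transcript of SNHG7, held 34.4% and 29.8% in MDA-MB-231 EV and 17.4% and 15.3% in SUM159 EV, and under 0.5% in both BT549 EV libraries.

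Transcripts annotated as retaining an intron took 36.7% of the counts of SNHG12 over all libraries, 5.53% of those of GAS5 and no more than 1.17% of those of the others. In SNHG12 their share was 13.7% and 15.1% in SUM159 EV and 45.1% and 49.7% in KD, and 60.5% and 72.4% in BT549 EV and 31.5% and 37.1% in OE. The groups did not overlap in either line. With these transcripts left out, SNHG12 was lower in SUM159 KD (log2 fold change -0.84, adjusted p = 0.00495, against -0.15 with them) and higher in BT549 OE (log2 fold change 0.96, adjusted p = 0.0135, against 0.02 with them). In MDA-MB-231 its retained-intron shares in EV (46.7% and 32.4%) and KD (23.8% and 51.2%) overlapped, at 7 to 51 counts a library.

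Other genes overlap the hosts. Among them, ZNFX1, DIPK1B, PRSS12, TRNAU1AP and ENSG00000284526 share exonic bases with ZFAS1, SNHG7, SNHG8, SNHG12 and SNHG16, respectively, on the opposite strand and passed the filter, and ENSG00000271793 shares 943 bases with SNHG5 on the same strand but had at most 39 counts. Since the strand setting of the counting is not given in the sources used here, reads from such partners cannot be told apart from those of the host. In BT549 OE, where ZFAS1 was higher, ZNFX1 had a log2 fold change of -1.14 (adjusted p = 1.69e-12).

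The remaining genes named SNHG were mostly not called with KD. Of 21 such symbols 17 were tested. In MDA-MB-231 KD, 5 were called lower (29.4%, beside 16.5% of all symbols) and 1 higher (5.88%, beside 21.2%), with a median log2 fold change of -0.48. SNHG17 went from 30.4 and 33.5 CPM to 20.5 and 21.8 CPM (log2 fold change -0.59, SE 0.07, adjusted p = 2.89e-07), and SNHG29, SNHG32, SNHG30 and SNHG21 had log2 fold changes of -0.37, -0.48, -0.50 and -0.79. The single higher one was SNHG18, from 8.11 and 6.95 CPM to 10.2 and 12.5 CPM (log2 fold change 0.59, SE 0.14, adjusted p = 0.00261). In SUM159 KD, 4 were lower (SNHG4, SNHG17, SNHG29 and SNHG32), which is 23.5% beside 31.4% of all symbols. There 2 were higher (11.8%, beside 28.6%), SNHG19 with a log2 fold change of 0.97 and SNHG18 with 1.64 (SE 0.14, adjusted p = 7.85e-10). After rounding, SNHG18 was at 0 in every BT549 library.

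In BT549 OE the remaining SNHG genes were mostly higher. Called higher were 10 of the 17, beside 35.6% of all symbols, and none was called lower by edgeR, also at an unadjusted p under 0.05 (0), beside 35.0%. SNHG3 rose from 12.5 and 12.1 CPM to 45.5 and 48.3 CPM (log2 fold change 1.93, SE 0.08, adjusted p = 1.36e-16), although it had log2 fold changes of -0.04 and 0.05 in the 2 KD lines, neither called. SNHG17 rose from 30.2 and 30.4 CPM to 64.8 and 66.3 CPM (log2 fold change 1.11, SE 0.06, adjusted p = 1.19e-13). SNHG9 and SNHG19 had the largest changes, log2 fold changes of 2.95 and 2.59, from levels near 1 CPM or below. SNHG29, SNHG32, SNHG30, SNHG11, SNHG21 and SNHG10 were the others, at 0.66 to 2.27. The median log2 fold change of the 17 was 0.69. SNHG17, SNHG29 and SNHG32 were, like SNHG1, called lower in both KD lines and higher in OE, as were 2.99% of all symbols.

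**Figure D5:**
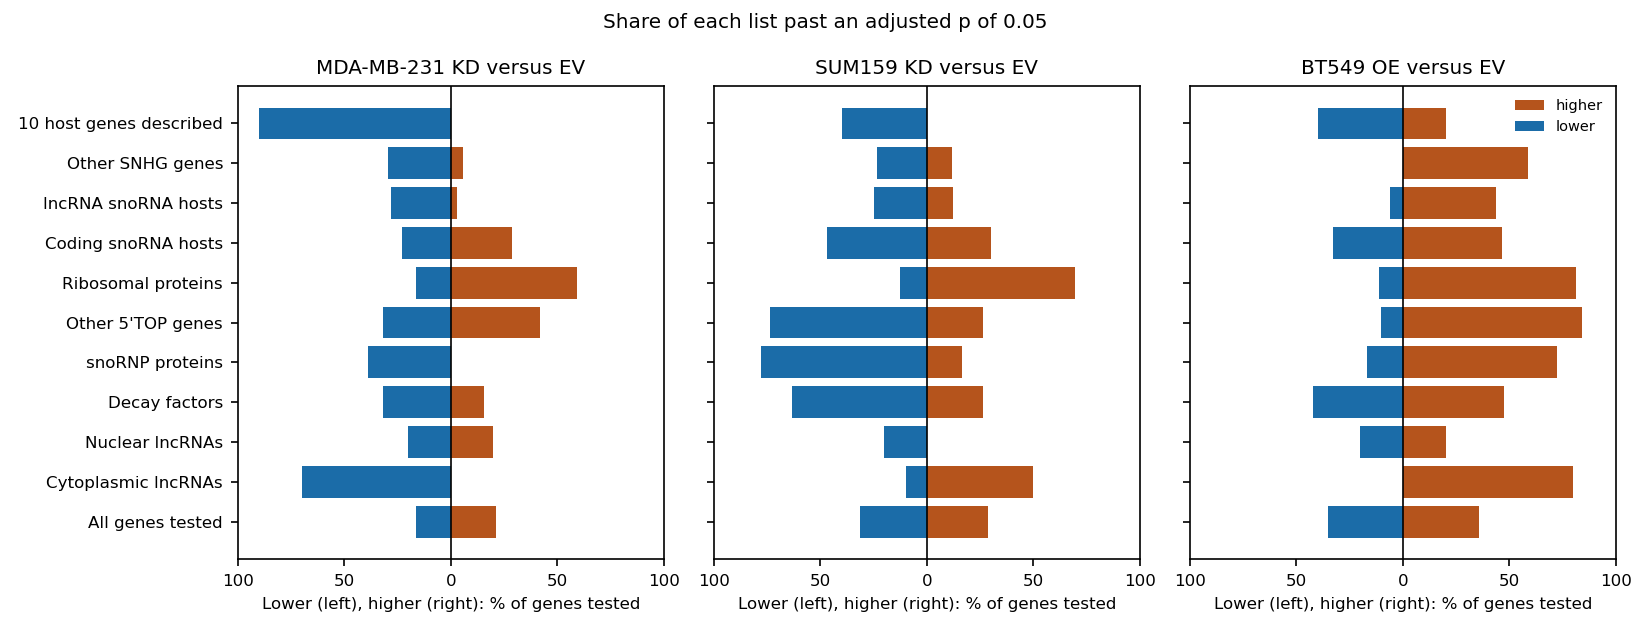
Percent of the tested genes of each list (rows) with an adjusted p under 0.05 that were lower (left of 0) or higher (right of 0) in KD or OE than in EV; the bottom row gives all 16538 symbols. The 10 host genes lie mostly to the left in MDA-MB-231 KD and on both sides in BT549 OE, where the remaining SNHG genes and the ribosomal protein genes lie mostly to the right.

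The wider set of snoRNA hosts was read from the annotation as every gene whose span holds a snoRNA on its own strand, without the 10. Of 244 protein-coding hosts tested, 70 were higher (28.7%, beside 21.2% of all symbols) and 56 lower (22.95%, beside 16.5%) in MDA-MB-231 KD. In SUM159 KD 73 were higher (29.9%, beside 28.6%) and 114 lower (46.7%, beside 31.4%), and in BT549 OE 113 were higher (46.3%, beside 35.6%) and 80 lower (32.8%, beside 35.0%). Of 32 noncoding hosts, which include the 17 SNHG genes above, 1 was higher and 9 were lower (28.1%) in MDA-MB-231 KD, 4 higher and 8 lower (25%, under the 31.4% of all symbols) in SUM159 KD, and 14 higher (43.8%) and 2 lower in BT549 OE. UBA6-DT was lower in both KD lines, with log2 fold changes of -0.96 (adjusted p = 0.000189) and -0.70 (adjusted p = 0.000417). DANCR, a noncoding host with cytoplasmic RNA, was 2.75 and 2.46 CPM in BT549 EV and 18.3 and 16.1 CPM in OE (log2 fold change 2.72, SE 0.14, adjusted p = 2.61e-14). Its log2 fold change was 0.24 in SUM159 KD (adjusted p = 0.00156). In MDA-MB-231 it went the other way, from 37.18 and 37.55 CPM in EV to 27.23 and 22.37 CPM in KD.

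Ribosomal protein mRNAs, the best known carriers of the TOP start, were mostly higher in each comparison. Of 79, 47 were higher (59.5%, beside 21.2% of all symbols) and 13 lower (16.5%, the same share as of all symbols) in MDA-MB-231 KD, with a median log2 fold change of 0.10. In SUM159 KD 55 were higher (69.6%, beside 28.6%) and 10 lower (12.7%, beside 31.4%), with a median of 0.24. In BT549 OE 64 were higher (81.0%, beside 35.6%) and 9 lower (11.4%, beside 35.0%), with a median of 0.46. RPL13 had log2 fold changes of 0.57 and 0.61 in the KD lines. The 19 other TOP genes, which encode mostly translation factors, had 8 higher (42.1%) and 6 lower (31.6%) in MDA-MB-231 KD, 5 higher (26.3%, near the 28.6% of all symbols) and 14 lower (73.7%) in SUM159 KD, and 16 higher (84.2%) and 2 lower (10.5%) in BT549 OE. Among them EIF3F, a subunit of the initiation factor eIF3, had log2 fold changes of 0.22, 0.26 and 0.89 in the 3 comparisons, and PABPC1, the cytoplasmic poly(A)-binding protein, had 0.84 in BT549 OE. Of these 19, 5 genes host snoRNAs themselves, as do 28 of the 79 ribosomal protein genes.

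Most mRNAs for the proteins that bind and assemble snoRNAs were lower with KD in SUM159. Of 18 tested, 14 were lower (77.8%, beside 31.4% of all symbols) and 3 higher (16.7%, beside 28.6%) there (median log2 fold change -0.77), led by RUVBL1, an ATPase of box C/D assembly, at -1.57 (SE 0.04, adjusted p = 3.24e-20), and NUFIP1, an assembly factor, at -1.23. In MDA-MB-231 KD 7 were lower (38.9%, beside 16.5%), among them NOP56, a core protein of box C/D particles, at -0.43 (SE 0.05, adjusted p = 1.17e-07), and none was called higher by edgeR, with 2 at an unadjusted p under 0.05, beside 21.2%. In BT549 OE 13 were higher (72.2%, beside 35.6%) and 3 lower (16.7%, beside 35.0%), with the box H/ACA proteins NOP10 and NHP2 at 1.01 and 0.97 and GAR1 at -0.65. The median difference of the KD effects of these proteins, MDA-MB-231 minus SUM159, was 0.54, whereas that of the 10 hosts was -0.33.

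Factors of nonsense-mediated decay, which removes host RNAs, changed in both directions. Of 19, 3 were higher (15.8%, beside 21.2% of all symbols) and 6 lower (31.6%, beside 16.5%) in MDA-MB-231 KD, with UPF1, the helicase at the core of the pathway, at -0.47 (SE 0.07, adjusted p = 1.98e-05) and MAGOHB, of the exon junction complex, at 0.55. In SUM159 KD 5 were higher (26.3%, beside 28.6%) and 12 lower (63.2%, beside 31.4%), with UPF3B at -1.19 and EIF4A3, the helicase of the exon junction complex, at -1.17. In BT549 OE 9 were higher (47.4%, beside 35.6%) and 8 lower (42.1%, beside 35.0%), with RNPS1 at 1.28, UPF3B at 0.88 and EIF4A3 at -1.18. Polysome RNA of these factors was measured and not their protein or the decay of the host RNAs.

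Noncoding RNAs outside the SNHG names were read for comparison, and 2 of those with cytoplasmic RNA, DANCR and EPB41L4A-AS1, host snoRNAs too. Of 10 with cytoplasmic RNA, 7 were lower and none higher in MDA-MB-231 KD by edgeR (0 also at an unadjusted p under 0.05), beside the same background of 16.5% and 21.2%. In SUM159 KD 5 were higher and 1 lower, beside 28.6% and 31.4%. In BT549 OE 8 were higher and none lower by edgeR (0 also at an unadjusted p under 0.05), beside 35.6% and 35.0%. EPB41L4A-AS1 and TMEM147-AS1 had log2 fold changes of -0.94 and -0.86 in MDA-MB-231 KD. Of 5 RNAs known as nuclear, 1 was higher and 1 lower in MDA-MB-231 KD, MALAT1 at 0.54 and PVT1 at -0.81. PVT1 was at -1.08 in SUM159 KD, and NEAT1 at 1.99 in BT549 OE. MALAT1 RNA was present in all polysome libraries, at 17.0 to 78.0 CPM.

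Averaged over the 10 hosts, the profile across the 6 groups was highest in SUM159 EV. The mean centred log2 CPM was 1.10 in SUM159 EV, 0.71 in SUM159 KD, 0.28 in MDA-MB-231 EV, -0.45 in MDA-MB-231 KD, -0.78 in BT549 EV and -0.87 in BT549 OE. SNHG5 and SNHG16 lay closest to this mean profile, with root mean square differences of 0.31 and 0.35 on the log2 scale, and SNHG7 lay furthest, at 1.75. SNHG1 and SNHG8 were the most alike pair of hosts, at 0.44. SNHG6 had the flattest profile among them, with centred values from -0.29 to 0.40. Among 12580 other genes that averaged 50 counts or more, STX18-AS1 (0.18), ENSG00000267002 (0.19), DUSP7 (0.21), GNL2 (0.21) and NUBPL (0.21) were nearest to the mean profile by the same measure over the 6 group means.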

How the data were processed

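Polysome-associated RNA was sequenced in 12 libraries, 2 in each of 6 groups taken from the sample labels. By the study's methods and the submitters' processing notes, the authors used Trimmomatic, HISAT2 with GRCh38, SAMtools for duplicate removal, and Partek. A poly(A) library kit is named per the labels, and a stranded kit after rRNA depletion in the methods. The counting tool, annotation and strand setting are not given in the sources used here. What the authors deposited is 1 table of expected counts for Ensembl transcripts, without normalization (3.10% of values above 0 are whole). In the 8 columns of MDA-MB-231 and SUM159, 5.08% of rows carry "?", which was taken as 0, and no row is 0 in all 4 BT549 libraries. Whether transcripts without a value in BT549 were left out of the table is not known, which limits comparisons between lines.

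Transcripts were matched to GENCODE 44 without version (79.6%, with 99.25% to 99.41% of the counts), summed for each symbol and rounded. In R 4.3.3, edgeR 4.0.16 tested 16538 symbols (filterByExpr, TMM, quasi-likelihood) in 1 fit of all 6 groups with 6 residual degrees of freedom per symbol. Calls were made at a Benjamini-Hochberg adjusted p under 0.05, and the SE is the log2 fold change over the root of F. TPM came from annotated lengths. The reads carry no molecular identifiers, so the errors cover counting and library spread only. The test was checked on simulated counts. Other steps ran in Python 3.11.15 (pandas 2.3.3, matplotlib 3.10.9).

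The 10 genes and all lists were chosen with earlier results of these data known. Beside the 10, the text draws on TRMT112, the other SNHG genes, the 5 genes most alike in profile and, from each list and comparison, at most 2 called genes with the largest increase and 2 with the largest decrease averaging 50 counts or more, not all of which are named. Genes that overlap a host were taken from the annotation. Some of them are not reported here. SNHG18, at 0 in BT549 after rounding, is given no fold there. Alternatives were RLE size factors, library size alone, DESeq2 1.42.0, no filter or one at 50 counts, the replicate number as a block, single-line fits, omission of marked or retained-intron transcripts, the main transcript alone, and omission of each library.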

Additional observations from a re-analysis of the deposited data

Results flagged for a closer look

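For 5 of the 10 host genes the KD effect differed between the lines by the test of the difference itself (edgeR's quasi-likelihood test, MDA-MB-231 minus SUM159, log2 scale). The difference was -0.42 for SNHG5, -0.70 for SNHG6, -0.47 for SNHG7, -1.38 for SNHG12 and -0.42 for SNHG16. SNHG5, SNHG6 and SNHG16 kept this call in every setting but 1 or none: counted by its main transcript alone, SNHG5 stood at 0.27 (adjusted p = 0.935) and SNHG6 at -0.61 (adjusted p = 0.11), and SNHG16 was called in all 17. SNHG7 lost the call in 8 of 17 settings and SNHG12 in 3. Groups of 2 libraries are too small for an outlier test.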

How the results depend on the processing

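Of the log2 fold changes of the 10 hosts recomputed under the alternatives, 896 kept their direction and their side of the threshold, 34 lost the call, 10 gained one and 40 changed sign. Of the counts of hosts called, 188 stayed within 1.5 times and 8 did not. The cause of the changes was not tested. Reading each gene from its main transcript alone moved the counts most: 4 hosts were lower in MDA-MB-231 KD, 2 were higher and 1 was lower in the difference of the KD effects, and 0 were higher in BT549 EV against MDA-MB-231 EV and 0 against SUM159 EV. Without retained-intron transcripts 0 were higher in BT549 EV against MDA-MB-231 EV. Leaving out single libraries gave 3 to 5 hosts lower in the difference of the KD effects (3 without MDA-MB-231 KD replicate 1) and 0 to 1 higher in BT549 EV against MDA-MB-231 EV (0 without BT549 EV replicate 1), and 8 lower in MDA-MB-231 KD each time. The group left with 1 library was assumed to vary like the others.

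Sign changes from the main transcript alone were 0.053 for ZFAS1 in MDA-MB-231 KD, -0.44 for ZFAS1 and -0.067 for SNHG6 in SUM159 KD, and -0.53 for GAS5, -0.016 for SNHG7 and -0.086 for SNHG8 in BT549 OE. In the difference of the KD effects they were 0.50 for ZFAS1, 0.27 for SNHG5 and -0.064 for SNHG8, and in BT549 EV against MDA-MB-231 EV -2.69 for ZFAS1, -0.25 for SNHG6 and -0.52 for SNHG12. With library size alone the values were -0.031 for ZFAS1 in SUM159 KD, -0.030 for SNHG8 in the difference of the KD effects, 0.038 for SNHG16 in MDA-MB-231 EV against SUM159 EV, and -0.21 for ZFAS1, -0.27 for SNHG6 and -0.15 for SNHG15 in BT549 EV against MDA-MB-231 EV. ZFAS1 in SUM159 KD was -0.0047 without a filter. SNHG8 in the difference of the KD effects was -0.010 with RLE size factors, -0.011 with DESeq2 and -0.017 at a mean of 50 counts. Among these, GAS5 in BT549 OE (adjusted p = 0.0235) and ZFAS1 in BT549 EV (adjusted p = 0.000345) were called with the new sign. The ZFAS1 value is that of ZFAS1-204 alone. It held 3.90% and 15.9% of the ZFAS1 counts in BT549 EV and 67.0% and 66.0% in MDA-MB-231 EV.

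Leaving out each library in turn gave ranges that cross 0 for ZFAS1 in MDA-MB-231 KD (-0.57 to 0.046) and in SUM159 KD (-0.0019 to 0.012), for SNHG5 (-0.18 to 0.0032), SNHG6 (-0.043 to 0.19) and SNHG7 (-0.028 to 0.22) in SUM159 KD, for GAS5 (-0.037 to 0.29), SNHG7 (-1.91 to 0.96) and SNHG12 (-0.21 to 0.27) in BT549 OE, for ZFAS1 (-0.58 to 0.044) and SNHG8 (-0.14 to 0.20) in the difference of the KD effects, and for SNHG6 in BT549 EV against MDA-MB-231 EV (-0.048 to 0.14).

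The replicate numbers did not pair the samples: same-numbered deviations correlated at 0.02, -0.02 and 0.0038 over 12590 genes. With the replicate number as a block the counts of hosts called were those without it, 9 lower in MDA-MB-231 KD, 4 lower in SUM159 KD, and 2 higher and 4 lower in BT549 OE. In BT549 EV against MDA-MB-231 EV the block gave -0.20 for ZFAS1 and -0.12 for SNHG6. Subtracting 200 bases from the lengths moved 35 of 60 TPM means by more than the replicate SD, and omitting retained-intron transcripts moved 8. SNHG12 in MDA-MB-231 and BT549, SNHG7 and SNHG8 in BT549, and SNHG1 in BT549 EV had under 100 counts a library. This limits what can be read from them.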
